A study of Mus musculus with 8 samples.

Results

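The integrin subunit genes and laminin chain genes of mouse muscle stem cells were described in 8 cultures. The members were taken by gene symbol, as every locus named as an integrin alpha subunit, an integrin beta subunit from 1 to 8 or a laminin alpha, beta or gamma chain. This gave 35 genes of the 55223 loci in the table, with 16 integrin alpha, 8 integrin beta, 5 laminin alpha, 3 laminin beta and 3 laminin gamma genes. Of these 35 genes, 21 averaged 0.5 TPM or more across all 8 libraries and were tested, among 16908 loci that passed the same filter. TPM (transcript abundance scaled to transcript length and to the total of each library) is a share, and levels of different genes can be set side by side in it.

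The cells came from muscle of female wildtype C57BL/6J mice aged 6 to 8 weeks and had grown for 2 days on Matrigel, a basement membrane extract rich in laminin. All cultures, vehicles included, were then kept serum-free for 6 h with BMPR-IA-Fc at 200 ng/ml, a soluble receptor that takes up BMP ligands. The 4 groups had 2 cultures each. In the BMP6 group and its vehicle (vehicle_b), cells of isolations 75 (replicate 1) and 77 (replicate 2) received 100 ng/ml BMP6 or vehicle for 1 h. In the BMP4 group and its vehicle (vehicle_a), cells of isolations 48 (replicate 1) and 54 (replicate 2) received 100 ng/ml BMP4 or vehicle for 1 h. The vehicle was 4 mM HCl with 0.1% bovine serum albumin. The labels do not say how many mice made up an isolation, so p-values measure the spread between these cultures.

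Integrins are receptors made of an alpha and a beta subunit that hold cells to the extracellular matrix. Laminins are trimers of an alpha, a beta and a gamma chain, and they form the sheet of the basement membrane that surrounds each muscle fibre and covers its satellite cells. In muscle the alpha subunit encoded by Itga7 pairs with the product of Itgb1 and binds laminin, and loss of Itga7 or Lama2 causes muscular dystrophy. BMP ligands act through receptors that phosphorylate SMAD transcription factors, which then switch target genes on or off.

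The libraries held between 48012825 reads (BMP6 replicate 1) and 58002740 reads (vehicle_a replicate 1), as estimated from the deposited coverage. The label of the cells was checked against marker genes. Muscle stem cell and myoblast markers, a list that includes the member Itga7, summed to 1134 to 1365 TPM in the BMP6 experiment. In the BMP4 experiment they summed to 1720 to 1876 TPM. However, Calcr, a marker of resting cells, stayed under 1 TPM in every library. Endothelial markers summed to at most 4.35 TPM. Immune markers summed to at most 19.1 TPM, nearly all of it from the Itgam locus described below, and Ptprc, Adgre1, Csf1r and 7 further immune genes stayed under 1 TPM in every library. Differentiating myocyte markers summed to 1404 and 1773 TPM in the BMP6 cultures, 1215 and 1837 TPM in vehicle_b, 7187 and 24970 TPM in the BMP4 cultures and 7878 and 25540 TPM in vehicle_a. Pericyte and smooth muscle markers, with Acta2 as the highest, were also lower in the BMP6 experiment, at 75.5 to 92.7 TPM against 791 to 1515 TPM. Fibroblast markers summed to 44.0 to 50.5 TPM in the BMP6 experiment against 76.0 to 175 TPM in the BMP4 experiment, with 8 of 12 under 1 TPM in every library. Schwann cell markers summed to 24.2 to 36.7 TPM against 33.9 to 97.8 TPM, tenocyte markers to 46.9 to 77.7 TPM against 75.5 to 296 TPM, and epithelial markers to 2.27 to 4.95 TPM against 0.493 to 1.11 TPM. In every library 5 of 8 tenocyte markers and 8 of 10 epithelial markers stayed under 1 TPM. The tenocyte sum thus rested on Scx, Fmod and Egr1. In these bulk samples the sums do not show which cells held the RNA. Fewer cells of a type and less RNA per cell cannot be told apart either. Of 14 BMP-SMAD target genes, 0 passed for BMP6 and 2 rose for BMP4, Skil and Smad7, in limma without a block, where 0.0118% and 0.0237% of all loci passed. With the isolation as a block 5 rose for BMP6 and 8 for BMP4, against 0.148% and 0.633% of all loci. Smad7, an inhibitory SMAD that passed for BMP6 with the block only, stood at 29.3 and 32.1 TPM in BMP6 cultures against 5.01 and 6.27 TPM in vehicle_b, and at 27.3 and 22.5 TPM in BMP4 cultures against 3.36 and 2.01 TPM in vehicle_a.

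For 2 of the members the locus value did not describe the gene. The locus named Itga1, which encodes a collagen-binding alpha subunit, had a mean of 17.3 TPM, but the transcript models of Itga1 itself summed to 0.264 TPM, 1.53% of the locus. The rest came from a model of Pelo, a ribosome rescue factor whose gene lies inside Itga1 on the same strand (GRCm39, chr13:115224891-115226722, within chr13:115089632-115238500). The locus named Itgam, which encodes an alpha subunit of myeloid cells, had a mean of 14.4 TPM, of which the Itgam models held 0.265 TPM or 1.84%. A model of Gm45700 at the downstream end of the locus held 14.0 TPM on average. Neither gene averaged 0.5 TPM on its own models. The Itgam models did reach 0.822 TPM in BMP4 replicate 2 and 0.782 TPM in vehicle_a replicate 2. Their rows are therefore given below as the Itga1 locus and the Itgam locus, and 19 members remained when each gene was represented by its own models. In Lama5 and Itga5, small models of microRNA genes took part of the locus, and the genes' own models held 87.4% and 97.8% of it.

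**Figure D1:**
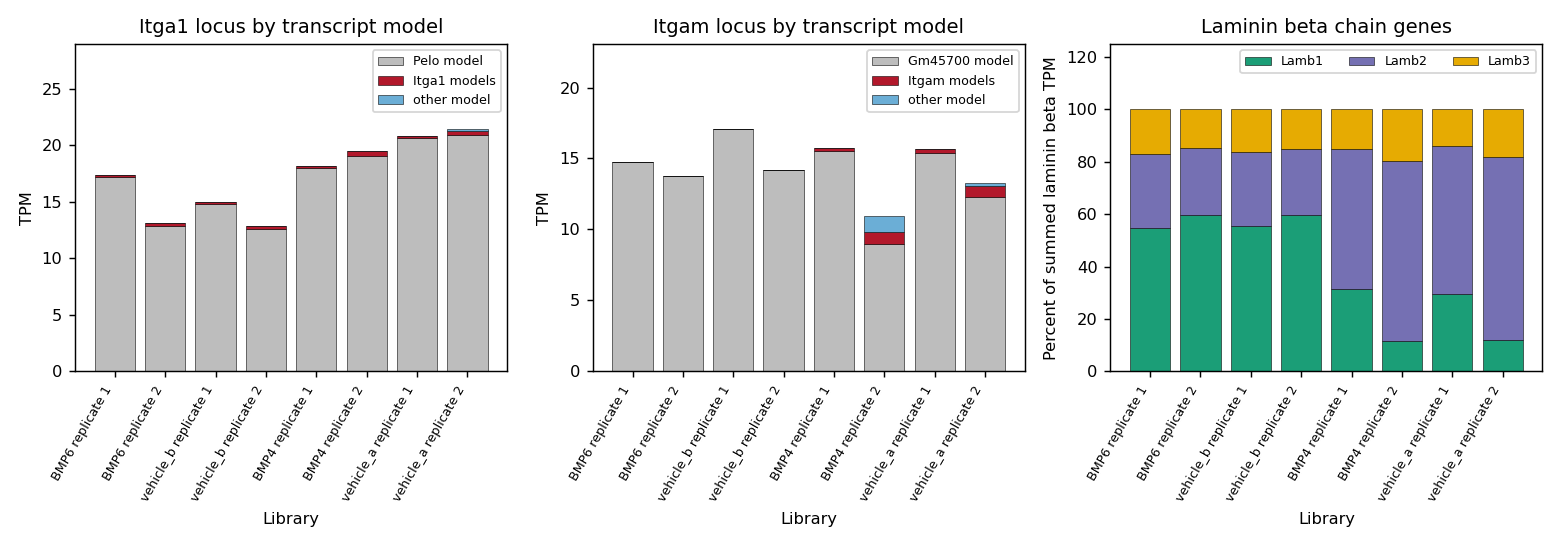
Stacked TPM of the transcript models in the Itga1 locus (left panel) and the Itgam locus (middle panel) in each library, and the percent of the summed laminin beta TPM held by each laminin beta gene (right panel). Grey bars, the Pelo and Gm45700 models, fill nearly all of the first 2 panels; in the right panel Lamb1 holds 54.6% to 59.7% in the BMP6 experiment and 11.5% to 31.6% in the BMP4 experiment.

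Among the alpha subunits that bind laminin (Itga3, Itga6 and Itga7), Itga7 dominated in every library. Its level was 187 and 223 TPM in BMP6 cultures, 179.9 and 226 TPM in vehicle_b, 307 and 316 TPM in BMP4 cultures and 343 and 323 TPM in vehicle_a. On own models it made up between 71.6% and 79.6% of all alpha subunit TPM, and its level was 6.64 to 20.7 times that of Itga3, the next laminin-binding subunit in most libraries. Itga3 stood at 28.2 and 27.0 TPM in BMP6 cultures, 25.1 and 27.2 TPM in vehicle_b, 25.5 and 15.3 TPM in BMP4 cultures and 29.9 and 18.5 TPM in vehicle_a. Itga6, whose product also serves as a surface marker of stem cells in several tissues, stood at 11.3 and 12.7 TPM in BMP6 cultures and at 10.8 and 12.5 TPM in vehicle_b. In the BMP4 experiment Itga6 stood at 14.2 and 29.9 TPM in BMP4 cultures and at 13.7 and 30.1 TPM in vehicle_a, so that Itga6 exceeded Itga3 in isolation 54.

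The reads of Itga7 also showed which form of the gene was used. Its 3 deposited models differ in a pair of neighbouring coding exons of 132 and 120 nt, each a multiple of 3 in length: one model carries the first, another the second and the last both. The 132 nt exon took 15.1% and 19.4% of the summed coverage of the pair in BMP6 cultures, 16.8% and 17.7% in vehicle_b, 20.8% and 22.6% in BMP4 cultures and 23.6% and 20.8% in vehicle_a. The 120 nt exon was thus the prevalent one in all 8 libraries. The sequences of both exons are shown, since they are what tells the forms apart, and the first is far richer in G and C (70.5% against 49.2%).
Itga7 exon of 132 nt (GRCm38, chr10:128941445-128941576, plus strand): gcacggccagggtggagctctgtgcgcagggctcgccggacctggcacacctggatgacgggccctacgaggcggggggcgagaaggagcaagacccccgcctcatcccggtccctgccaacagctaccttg
Itga7 exon of 120 nt (GRCm38, chr10:128941822-128941941, plus strand): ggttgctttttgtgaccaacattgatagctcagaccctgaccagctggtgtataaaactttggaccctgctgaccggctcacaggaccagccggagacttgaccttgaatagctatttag
The alternative exons of Itga6 (130 nt) and Itga3 (142 nt) were covered at 54.8% to 109% and at 84.2% to 135% of the mean of the exons shared by all models of the gene. The form with the exon was therefore the main one for both genes.

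The alpha subunits that bind the RGD sequence of fibronectin, vitronectin and related ligands were led by Itga5, the fibronectin receptor subunit, and Itgav. Itga5 stood at 19.0 and 17.8 TPM in BMP6 cultures, 16.7 and 16.2 TPM in vehicle_b, 25.3 and 29.7 TPM in BMP4 cultures and 27.6 and 29.3 TPM in vehicle_a. Itgav was the steadiest member, between 14.1 and 16.2 TPM in all 8 libraries. Itga2b, the platelet fibrinogen receptor subunit, stayed between 0.377 and 0.905 TPM and Itga8 between 0.121 and 0.862 TPM. The collagen-binding subunits Itga2 and Itga11 stayed at or under 0.274 TPM. Itga9 was at most 0.349 TPM, and the leukocyte subunit Itgal at most 0.102 TPM. Itgae and Itgax were listed at 0 in all 8 libraries. Itga10 and Itgad were not analysed here.

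Itgb1, the common partner of the laminin-, collagen- and fibronectin-binding alpha subunits, was the main beta subunit. Its level was 216 and 235 TPM in BMP6 cultures, 209.9 and 238 TPM in vehicle_b, 278 and 326 TPM in BMP4 cultures and 249 and 298 TPM in vehicle_a. It made up between 87.3% and 90.7% of all beta subunit TPM. The partners of Itgav followed far below. Itgb5, a vitronectin receptor subunit, lay between 9.11 and 14.4 TPM, and Itgb8, which with Itgav activates latent TGF-beta, between 0.466 and 1.08 TPM. Itgb6, the other subunit known for activating latent TGF-beta and best known from epithelia, stood at 3.37 and 4.69 TPM in BMP6 cultures, 3.48 and 4.90 TPM in vehicle_b, 15.4 and 25.0 TPM in BMP4 cultures and 15.5 and 25.2 TPM in vehicle_a. The 2 experiments did not overlap for this gene. Itgb4, which pairs with Itga6 in hemidesmosomes, lay between 3.81 and 5.54 TPM. Itgb3 stayed at or under 0.949 TPM and the leukocyte subunit Itgb2 at or under 0.356 TPM. Itgb7, a leukocyte homing subunit, was near 0 in the BMP4 experiment and between 2.09 and 3.54 TPM in the BMP6 experiment, where its first annotated exon was covered far less than the other 14.

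**Figure D2:**
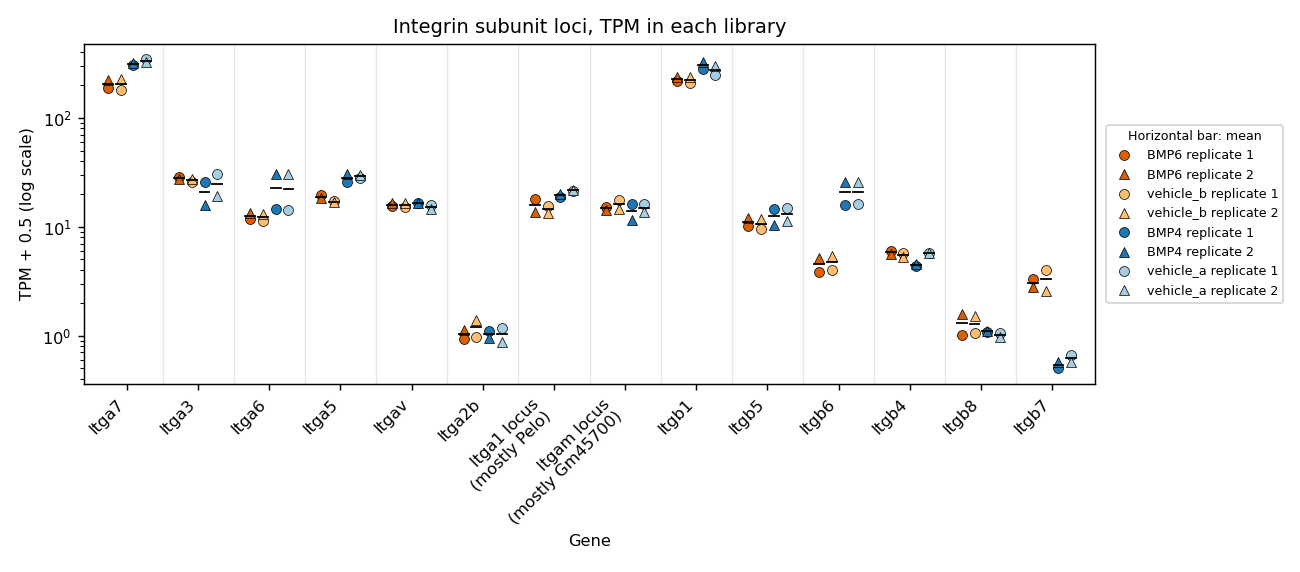
Levels of the 14 tested integrin loci in each library, as TPM + 0.5 on a log axis, with circles for replicate 1, triangles for replicate 2 and a bar at the mean of each group. Itga7 and Itgb1 stand at 179.9 TPM or more in all libraries, Itgb6 is higher in the 4 libraries of the BMP4 experiment and Itgb7 in the 4 libraries of the BMP6 experiment.

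RNA for all 3 kinds of laminin chain was present. Among the alpha chains, Lama2, the main alpha chain of the adult muscle basement membrane, and Lama5, which is found in many basement membranes, were the only ones above 1 TPM. Lama2 stood at 8.83 and 7.65 TPM in BMP6 cultures, 8.41 and 7.59 TPM in vehicle_b, 13.5 and 16.2 TPM in BMP4 cultures and 13.4 and 16.5 TPM in vehicle_a. The Lama5 locus stood at 19.2 and 14.6 TPM in BMP6 cultures, 19.3 and 13.4 TPM in vehicle_b, 21.8 and 21.7 TPM in BMP4 cultures and 30.7 and 23.9 TPM in vehicle_a. Lama4, a chain of vessels, was at most 0.637 TPM, Lama1, an embryonic chain, at most 0.0568 TPM, and Lama3, an epithelial chain, at most 0.0391 TPM.

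The beta chains differed most between the experiments. Lamb1, the chain of most basement membranes, stood at 24.6 and 30.1 TPM in BMP6 cultures and 24.5 and 31.0 TPM in vehicle_b. In the BMP4 experiment it stood at 16.3 and 5.49 TPM in BMP4 cultures and 17.4 and 6.38 TPM in vehicle_a. Lamb2, the beta chain of the neuromuscular synapse, ran the other way, at 12.8 and 13.1 TPM in BMP6 cultures, 12.5 and 13.1 TPM in vehicle_b, 27.6 and 32.8 TPM in BMP4 cultures and 33.2 and 37.4 TPM in vehicle_a. The ratio of Lamb1 to Lamb2 was therefore 1.92 to 2.36 in the BMP6 experiment and 0.167 to 0.591 in the BMP4 experiment. Lamb3, an epithelial chain, lay between 7.18 and 9.70 TPM in all libraries. Of the gamma chains, Lamc1, the partner in most trimers, lay between 31.7 and 38.5 TPM. Lamc3 stayed at or under 0.301 TPM.

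**Figure D3:**
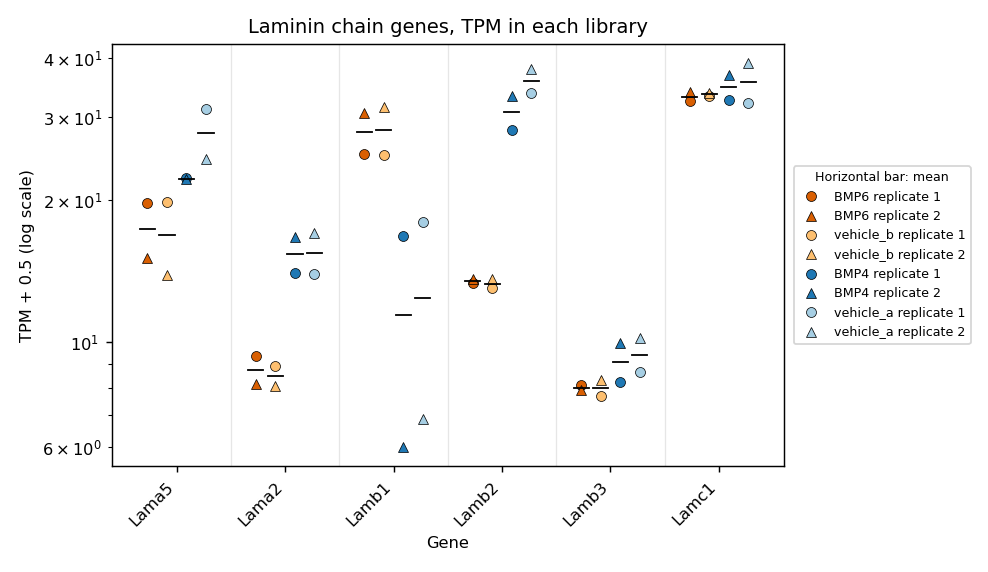
Levels of 6 laminin chain genes in each library, as TPM + 0.5 on a log axis, with circles for replicate 1, triangles for replicate 2 and a bar at the mean of each group. Lamb1 is higher and Lamb2 lower in the BMP6 experiment, and Lamc1 is level.

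After 1 h of BMP4 no integrin or laminin gene passed the test across all loci. The largest decreases, all small, were those of Itgb4, the Lama5 locus, Itga3 and Lamb2. Of the 21 members 0 passed a Benjamini-Hochberg adjusted p of 0.05 in limma, where 4 of 16908 loci (0.0237%) did. With the isolation as a block it was again 0 of 21, against 107 loci (0.633%). An unadjusted p under 0.05 was reached by 1 of 21 members without the block, against 560 of 16908 loci (3.31%). With the block it was reached by 7 of 21, against 3439 loci (20.3%), so the count rose among all loci as well. The log2 changes of the 20 members described here lay between -0.36 and 0.14. Over all 21 the median was -0.05, against -0.02 over all tested loci, and 15 of 21 were within 0.2 in size. Within the isolations, 11 of the 21 were lower in both BMP4 cultures and 4 were higher in both, against 35.0% and 28.3% of all tested loci.

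The largest change in size was that of Itgb4, with 3.81 and 4.02 TPM in BMP4 cultures against 5.20 and 5.18 TPM in vehicle_a. The groups did not overlap, and the log2 change was -0.36 (SE 0.13, limma adjusted p = 1, unadjusted p = 0.0244). It was -0.40 in isolation 48 and -0.33 in isolation 54. The Lama5 locus had a log2 change of -0.31 (SE 0.23), mostly in isolation 48, where it was -0.49 against -0.14 in isolation 54. The Lama5 model alone stood at 19.4 and 19.3 TPM in BMP4 cultures against 25.5 and 20.5 TPM in vehicle_a. The microRNA model in the locus stood at 2.38 and 2.44 TPM against 5.17 and 3.36 TPM. Itga3 and Lamb2 were lower in both isolations, with log2 changes of -0.25 (SE 0.29) and -0.22 (SE 0.13). Itgb1 was higher in both, with a log2 change of 0.14 (SE 0.14). These SEs include the distance between isolations. With the isolation as a block the SEs were 0.075 for Itgb4, 0.059 for Itga3, 0.049 for Lamb2 and 0.033 for Itgb1, and the limma adjusted p values were 0.121, 0.136, 0.127 and 0.130. On reads estimated from the deposited coverage, voom with the same block called these 4 genes, Itgb4, Itga3 and Lamb2 lower and Itgb1 higher, with adjusted p values of 0.0213, 0.0328, 0.0231 and 0.0382. In that fit 1039 of 16908 loci (6.15%) passed. Without the block, Itga7 (-0.10, SE 0.14), Itga6 (0.02, SE 0.44), Lama2 (-0.01, SE 0.16), Lamc1 (-0.03, SE 0.13) and Itgb6 (-0.01, SE 0.33) had log2 changes within their SE of 0. Itga6, Lama2, Lamc1 and Itgb6 also did so with the block. Itga7 did not, with a blocked SE of 0.043 (limma adjusted p = 0.294), and was lower in both isolations (-0.16 and -0.03). For the Lama5 locus the blocked SE was 0.096 (limma adjusted p = 0.183).

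Differences were smaller in the BMP6 experiment, among the members and among all tested loci alike. The median size of the log2 change over all loci was 0.132 and 0.117 with BMP4 in isolations 48 and 54. It was 0.0745 and 0.0762 with BMP6 in isolations 75 and 77. With BMP6, 0 of the 21 members passed in limma, where 2 of 16908 loci (0.0118%) did. With the block 0 passed, where 25 loci (0.148%) did. An unadjusted p under 0.05 was reached by 0 members without the block, against 213 loci (1.26%), and by 1 with the block, against 967 loci (5.72%). All 21 log2 changes lay between -0.20 and 0.16. Itga5 had the largest positive one, with 19.0 and 17.8 TPM in BMP6 cultures against 16.7 and 16.2 TPM in vehicle_b. Its groups did not overlap, and its log2 change was 0.16 (SE 0.12, limma adjusted p = 1). Itgb4, which was lower with BMP4, was slightly higher in both isolations with BMP6 (0.09 each), with 5.54 and 5.11 TPM in BMP6 cultures against 5.18 and 4.79 TPM in vehicle_b. For the BMP6 response minus the BMP4 response, 0 members and 0 of 16908 loci (0%) passed in limma, without and with the block. For Itgb4 this difference was 0.45 (SE 0.18, unadjusted p = 0.0405, limma adjusted p = 1.00). For the mean of both responses, 0 members passed, against 12 loci (0.0710%) without and 114 loci (0.674%) with the block, and the members lay between -0.15 and 0.08. With voom and the block it was also 0 members, against 346 loci (2.05%). Both ligands were given at the same dose for the same time but to different isolations.

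**Figure D4:**
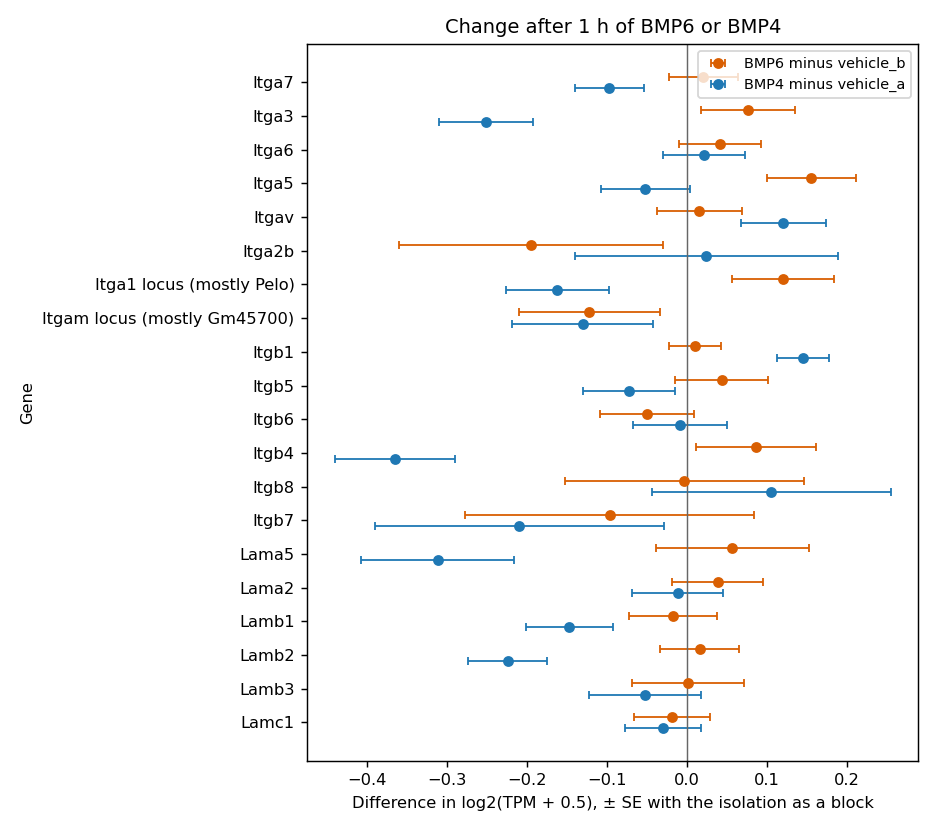
Change of 20 tested genes after 1 h of BMP6 (orange) or BMP4 (blue), as the difference in log2(TPM + 0.5) from the vehicle of the same isolations, with SE bars from the fit with the isolation as a block. BMP6 values lie within 0.20 of 0, BMP4 values lie between -0.36 for Itgb4 and 0.14 for Itgb1, and 0 of the 20 genes pass the adjusted test for either ligand.

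The vehicles of the 2 experiments differed far more than BMP and vehicle cultures did. Of the 21 members 7 passed in limma between vehicle_b and vehicle_a, 1 higher and 6 lower. This share is near the background, since 4602 of 16908 loci (27.2%) passed, 1799 higher (10.6%) and 2803 lower (16.6%). Quantile normalization gave 2379 higher and 2201 lower loci. The median log2 difference was -0.28 for the members and -0.01 for all tested loci. The experiment, its isolations and any batch coincide, so they cannot be told apart, and no block could be fitted. The differentiating myocyte markers moved with this difference, at 1215 and 1837 TPM in vehicle_b against 7878 and 25540 TPM in vehicle_a, with 13 of 16 lower. Of 11 tested muscle stem cell and myoblast markers 3 were higher and 5 lower. The muscle stem cell, pericyte, fibroblast, Schwann cell and tenocyte sums were also lower in vehicle_b and the epithelial sum higher. Whether cells of these types were present, or had a part in the results below, was not tested.

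Itgb7 was the member that rose. It met the filter of 0.5 TPM only through the BMP6 experiment, where it is high, so its call among the tested members adds no support. With a filter of mean TPM at least 2 it was not tested, and 0 members were called higher. It stood at 3.54 and 2.09 TPM in vehicle_b against 0.158 and 0.0780 TPM in vehicle_a, a log2 difference of 2.39 (SE 0.26, limma adjusted p = 0.00625). Because its vehicle_a level is near 0, the size depended on the pseudocount: it was 1.169 with 2 TPM, 3.72 with 0.1 TPM and 4.66 with voom on estimated reads, and the gene passed in each. The same split was seen in the stimulated cultures, at 2.79 and 2.28 TPM with BMP6 against 0 and 0.0693 TPM with BMP4. These cultures came from the same isolations as the vehicles, so they are no independent support. Of 12 immune markers 10 stayed under 1 TPM in every library, 4 of them at 0 in all 8. Among these low markers Itgb2 moved with Itgb7, at 0.218 to 0.356 TPM in the BMP6 experiment against 0 to 0.124 TPM in the BMP4 experiment. The own models of Itgam ran the other way, at 0 to 0.022 TPM against 0.242 to 0.822 TPM. Itgal was at most 0.0364 TPM in the BMP6 experiment and at most 0.102 TPM in the BMP4 experiment. The part of immune cells in the Itgb7 difference was not tested.

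Itgb6 and Lamb2 fell most. Itgb6 stood at 3.48 and 4.90 TPM in vehicle_b against 15.5 and 25.2 TPM in vehicle_a, a log2 difference of -2.13 (SE 0.33, limma adjusted p = 0.0123). Lamb2 stood at 12.5 and 13.1 TPM in vehicle_b against 33.2 and 37.4 TPM in vehicle_a, a log2 difference of -1.43 (SE 0.13, limma adjusted p = 0.00486). Lama2, Itga5 and Itga7 fell by less, with log2 differences of -0.86 (SE 0.16), -0.77 (SE 0.12) and -0.72 (SE 0.14) and limma adjusted p values of 0.0183, 0.0118 and 0.0198. For each of these 5 genes both vehicle_b cultures lay below both vehicle_a cultures. The genes are named because they passed in these libraries, so this adds no support. The share of all loci with such a separation was not counted. The Itga1 locus also fell (-0.59, SE 0.16, limma adjusted p = 0.0403), which concerns the Pelo model and not Itga1.

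The remaining members did not pass. The Lama5 locus had a log2 difference of -0.73 (SE 0.23, limma adjusted p = 0.0543), and the Lama5 model alone one of -0.66 (SE 0.19, limma adjusted p = 0.0470), which passed. Lamb1 had a log2 difference of 1.34 (SE 0.59, limma adjusted p = 0.125), with 24.5 and 31.0 TPM in vehicle_b against 17.4 and 6.38 TPM in vehicle_a. The groups did not overlap, but the vehicle_a cultures lay far apart. Without replicate 1 of vehicle_a the log2 difference of Lamb1 was 2.03 and passed (limma adjusted p = 0.0478), and without replicate 2 it was 0.64 (limma adjusted p = 0.502). The log2 difference of Itga6 was -0.78 (SE 0.44, limma adjusted p = 0.211) and that of Itgb1 was -0.29 (SE 0.14, limma adjusted p = 0.158). Itgav (0.06, SE 0.11), Lamc1 (-0.08, SE 0.13), Itgb4 (-0.05, SE 0.13) and Itga3 (0.15, SE 0.29) were close to 0. Without replicate 1 or without replicate 2 of vehicle_b, 0 members passed, and 12 and 5 of all loci did. Without replicate 2 of vehicle_a, Itgb7 and Lamb2 alone passed, against 420 loci.

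**Figure D5:**
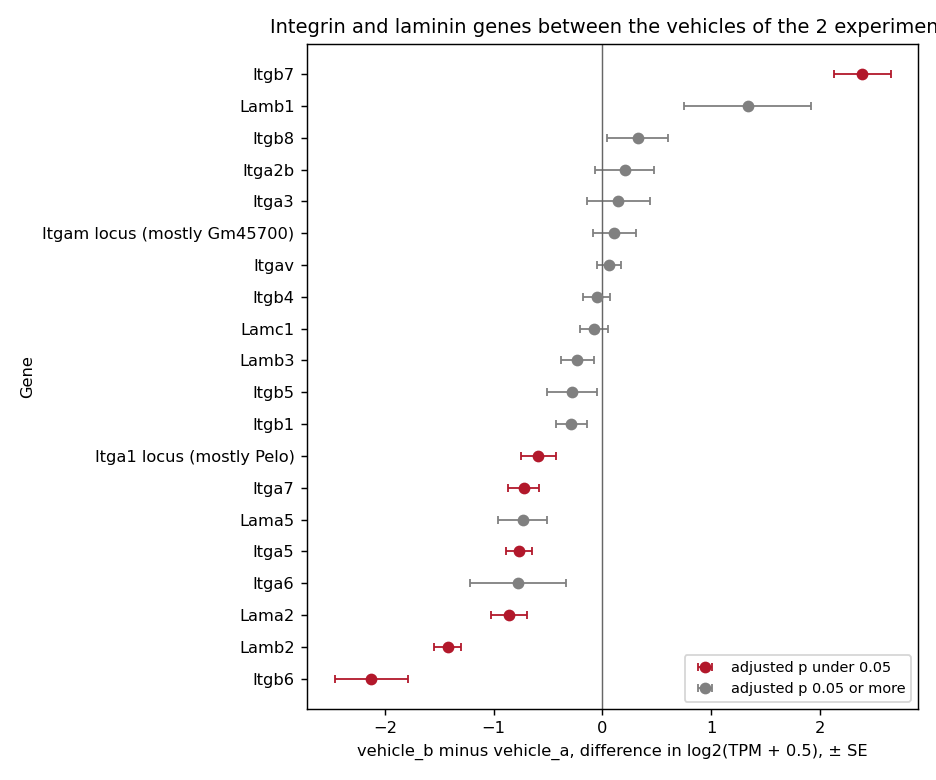
Difference of vehicle_b minus vehicle_a in log2(TPM + 0.5) with SE bars for 20 tested genes, ordered by size, with the 7 genes of adjusted p under 0.05 in red. Itgb7 stands at 2.39 and Itgb6 at -2.13; Lamb1 has the second highest value, 1.34, with a wide error bar.

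The promoters of Itgb7, Itgb6 and Lamb2, the members with the largest passing differences, are shown as the 250 bases before the start that RefSeq gives. For Itgb7 the first annotated exon had a mean coverage of at most 1.56 in any library. Whether its transcripts began at the RefSeq start was not tested. Capitals mark the E-box CANNTG, the core letters bound by the basic helix-loop-helix factors that include MyoD and myogenin, searched on both strands.
Itgb7 (GRCm38.p6, chr15:102231936-102232185, minus strand): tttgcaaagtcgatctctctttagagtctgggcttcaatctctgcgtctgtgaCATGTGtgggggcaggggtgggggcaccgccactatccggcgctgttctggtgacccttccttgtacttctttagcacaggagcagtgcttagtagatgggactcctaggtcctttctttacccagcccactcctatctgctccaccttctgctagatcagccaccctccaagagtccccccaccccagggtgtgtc
Itgb6 (GRCm38.p6, chr2:60722604-60722853, minus strand): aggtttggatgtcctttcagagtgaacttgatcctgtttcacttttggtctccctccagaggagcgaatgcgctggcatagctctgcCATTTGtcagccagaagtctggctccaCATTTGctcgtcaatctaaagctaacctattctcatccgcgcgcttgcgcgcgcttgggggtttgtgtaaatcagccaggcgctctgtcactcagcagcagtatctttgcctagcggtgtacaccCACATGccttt
Lamb2 (GRCm38.p6, chr9:108479612-108479861, plus strand): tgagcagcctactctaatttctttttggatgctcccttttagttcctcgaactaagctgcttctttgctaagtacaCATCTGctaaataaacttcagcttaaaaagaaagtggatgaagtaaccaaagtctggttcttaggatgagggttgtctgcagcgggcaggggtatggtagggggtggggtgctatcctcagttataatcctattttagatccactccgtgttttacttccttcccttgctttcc
These windows held 1, 3 and 1 matches, and none held GGCGCC, a GC-rich SMAD motif, or the E-box CAGCTG. Of 32851 RefSeq promoters, 66.2% held CANNTG, 13.0% CAGCTG and 9.59% GGCGCC in the same window. RefSeq promoters were matched for 16 of the 21 tested genes, with 19 windows, of which 17 held CANNTG, 4 held CAGCTG and 3 held GGCGCC. The 3 windows with GGCGCC were those of Itgb1, Lama5 and Lamb1. A match of letters is a description and does not show that a factor binds.

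Isolations of the same experiment also differed, and they did so alike with and without BMP4. Isolation 54 had more than a 2-fold difference from isolation 48 in 2 of the 20 members described here, Itga6 and Lamb1, both with BMP4 and with vehicle, against 7.68% of all tested loci with BMP4 and 6.90% with vehicle. Itga6 was higher in isolation 54 by a log2 difference of 1.05 with BMP4 and 1.11 with vehicle. The log2 difference of Lamb1 was -1.49 with BMP4 and -1.38 with vehicle. Itgb6 was higher by 0.68 in both. Among the genes under the filter, Itga4, an alpha subunit that binds VCAM and fibronectin, stood at 1.08 TPM with BMP4 and 1.28 TPM with vehicle in isolation 54, and between 0.239 and 0.335 TPM in the other 6 libraries. Differentiating myocyte markers summed to over 3 times more in isolation 54 than in isolation 48. Other marker sums, some of which rest on few genes as given above, were higher in isolation 54 too. In BMP4 cultures they were 94.8 against 33.9 TPM for Schwann cell markers and 183 against 122 TPM for tenocyte markers. They were 147 against 76.0 TPM for fibroblast markers and 1489 against 791 TPM for pericyte and smooth muscle markers. In vehicle_a they were 97.8 against 38.0, 296 against 75.5, 175 against 84.2 and 1515 against 799 TPM in the same order. Whether such cells were present, or had a part in the differences, was not tested. Between isolations 77 and 75, 0 of 21 members differed by more than 2-fold, against 1.27% of loci with BMP6 and 1.34% with vehicle.

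Genes that work with integrins and laminins were counted in 4 lists, to be read against the 10.6% of all loci that were higher and the 16.6% that were lower between the vehicles. In vehicle_b against vehicle_a, 0 of 17 tested basement membrane genes other than laminins rose and 6 fell, with a median log2 difference of -0.39. Hspg2, which encodes perlecan, stood at 43.8 and 51.5 TPM in vehicle_b against 124 and 133 TPM in vehicle_a, and Nid2, a laminin linker, at 1.67 and 1.99 TPM against 7.80 and 19.8 TPM. Nid1 (0.52, SE 0.23) and Col4a1 (-0.17, SE 0.31) did not pass. Of 16 tested ligands of other integrins, 1 rose and 6 fell. Lgals3 was the one that rose, by a log2 difference of 0.67 (SE 0.09), and Fn1, fibronectin, did not pass (0.57, SE 0.64). Of 35 tested adaptor and focal adhesion genes, 2 rose and 10 fell, among them Tln2 (-0.86, SE 0.16) and Vcl (-0.95, SE 0.21), while Tln1, which links integrins to actin, did not pass (-0.27, SE 0.13).

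The last list held the other laminin receptors. Of 34 genes of the dystroglycan complex, its glycosylation and other laminin receptors, 2 rose and 17 fell, with a median log2 difference of -0.70 against -0.01 over all loci, where 10.6% were higher and 16.6% lower. Dag1, which encodes dystroglycan, stood at 46.4 and 31.3 TPM in vehicle_b against 124 and 215 TPM in vehicle_a (log2 difference -2.08, SE 0.41, limma adjusted p = 0.0199). Sgca, a sarcoglycan of muscle, fell by 3.36 (SE 0.50) and Bcam, a receptor of Lama5 trimers, by 3.02 (SE 0.54) on the log2 scale. Sdc4, a heparan sulfate co-receptor of integrins, rose by 3.17 (SE 0.43) on the log2 scale. After BMP4 or BMP6 0 genes of these 4 lists passed without the block. With the isolation as a block Sdc4 passed for BMP4, with 25.1 and 10.7 TPM in BMP4 cultures against 8.65 and 4.69 TPM in vehicle_a (log2 change 1.30, limma adjusted p = 0.0223). With BMP6 it stood at 54.6 and 67.2 TPM against 55.2 and 68.2 TPM in vehicle_b. Bcar1, an adaptor of focal adhesions, and Sdc4 passed for the mean of both responses with the block.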

How the data were processed

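Poly(A) RNA of 8 mouse muscle stem cell cultures was read from strand-specific libraries, single-end, 50 nt, per the labels' protocols. The submitters' processing notes name STAR 2.7.11a, SAMtools 1.17 and GRCm39. The authors made the TPM and FPKM values with StringTie 2.2.1 and a merged annotation. Per the file headers they gave no strand option, so values of overlapping genes are uncertain. Coverage signal per transcript and exon was deposited in the same output, as attribute text.

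The members and gene lists were chosen with earlier results of these data known. Every member of mean TPM of at least 0.5 is named with values, except 1 that is not reported here, and the others by range. From the companion lists, some of the genes called in the vehicle comparison or with the block were named. They are not always those of smallest p. Dag1, Nid1, Hspg2, Col4a1, Fn1 and Tln1 were always named. The fit used limma 3.58.1 (R 4.3.3) on log2(TPM + 0.5), with 4 group means and a trended prior over 16908 loci. This scale understates changes of low genes. P values were adjusted over all loci by Benjamini-Hochberg, two-sided, with a threshold of 0.05. The fit was tested on simulated data with 200 changed genes.

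By the labels, the BMP and vehicle culture of an isolation carry the same number, so the isolation pairs them. Within pairs, deviations from the group means correlated at 0.707 in the BMP4 and at 0.455 in the BMP6 experiment. The blocked fit has the isolation as a fixed term. Reads were estimated as coverage times length over read length. Read sampling error was not estimated apart from the spread between cultures. Promoter sequences come from RefSeq (GRCm38.p6) and exon sequences from GENCODE M21 (GRCm38), matched to the deposited exons by gene and length, not by coordinates. FPKM was used only for shares, which within a library are the same as in TPM by construction, so this was no check. Alternatives were another pseudocount, filter or scaling, voom, each library left out, each experiment alone, and own transcript models, the last chosen after seeing the data.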

Additional observations from a re-analysis of the deposited data

How the results depend on the processing

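For BMP4 against vehicle_a, 0 members passed under all alternatives except voom on estimated reads with the replicate block, which called 4, and the cause was not tested. For BMP6 against vehicle_b, for either BMP against its own vehicle and for the difference of the responses, 0 members passed under every alternative run. The replicate block in limma changed no call among the members. For vehicle_b against vehicle_a the 7 calls ranged from 0 to 7 when 1 library was left out: 0 without replicate 1 of vehicle_b, 0 without its replicate 2 and 2 without replicate 2 of vehicle_a, where 12, 5 and 420 loci passed in all. A group then has 1 culture, which is assumed to vary like the others. Other alternatives called 6 to 8 members, 8 after rescaling by the median ratio, with the Lama5 locus added. Own transcript models, chosen after seeing the data, gave 7 of 19, with Lama5 in and Itga1 out. They also moved the Itga7 share of alpha subunit TPM to 73.4% in BMP6 cultures, 73.9% in vehicle_b, 77.9% in BMP4 cultures and 78.4% in vehicle_a, against 66.2%, 66.7%, 72.1% and 72.4% on loci, because the Itga1 and Itgam loci drop out. The log2 change of Itga3 with BMP4, -0.25 with all libraries, lay between -0.61 and 0.11 when 1 library was left out. It was positive without replicate 1 of vehicle_a (0.09) and without replicate 2 of BMP4 (0.11), where the groups no longer hold the same isolations. Likewise the log2 change with BMP4 lay between 0.01 and 0.28 for Itgb1 (0.14 with all libraries) and between -0.35 and -0.10 for Lamb2 (-0.22), while that of Itgb4 lay between -0.40 and -0.33 (-0.36).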

Other observations

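Coverage along the exons of Itgb7 and Itgb6 is given as values. In Itgb7 the first annotated exon (94 nt) had a mean coverage of at most 1.56 in any library, while the other 14 exons had 4.997 and 4.167 in BMP6 cultures, 6.95 and 3.91 in vehicle_b, 0 and 0.133 in BMP4 cultures and 0.271 and 0.151 in vehicle_a.

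In Itgb6 the split of TPM over models and the coverage of exons pointed to different starts. The model that begins at the downstream first exon (310 nt) held 71.7% to 81.3% of Itgb6 TPM in the 8 libraries. The upstream first exon (228 nt) was covered at 47.4% to 89.5% of the shared exons in the BMP6 experiment and at 75.5% to 96.6% in the BMP4 experiment, and the downstream first exon at 3.82% to 26.2% over all libraries. The promoter of Itgb6 printed above lies before the upstream start.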
